A study of Mus musculus with 17 samples.

Results

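The mitochondrial ribosomal protein genes were examined in E14 mouse embryonic stem cells, an established line. All 77 genes in the deposited count table whose symbol is Mrpl or Mrps followed by a number were taken, out of 20621 genes, and each had at least 10 counts over the 17 libraries. The lowest sum was 3698 counts for Mrpl23, and all 77 members passed the filter on low counts that left 15365 genes to be tested. Cells of 2 genotypes were compared: WT, and RNAPII-mut, labelled slow/slow, which per the series title carries an RNA polymerase II that elongates slowly (called mutant here). All cells grew without feeders on gelatine in medium with 10% serum and 1000 U per mL LIF. To this medium 2i was added for 0, 1, 2 or 7 days, that is 1 µM PD0325901, which inhibits MEK, and 3 µM CHIR99021, which inhibits GSK3. There were 2 libraries of total RNA per genotype and day, and 3 for the mutant at day 1. The labels do not say whether the replicates were separate cultures or how many mutant clones were used, so that p-values measure the spread between these libraries, and the mutation and any other difference between the lines cannot be told apart.

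Mitochondria make the few proteins that their own DNA encodes on a ribosome of their own, the mitoribosome. Its RNAs come from mitochondrial DNA, whereas all of its proteins are encoded in the nucleus, made in the cytosol and imported. Many of these proteins descend from bacterial ribosomal proteins and others are found only in mitochondria. The proteins made on it are core subunits of the respiratory chain and ATP synthase, so that mitoribosomal genes are usually considered together with those of oxidative phosphorylation. Of the 77 members, 50 encode large-subunit proteins (Mrps30 and Mrps18a included, in spite of their names) and 26 small-subunit proteins. The remaining one, Mrps36, encodes a protein now known as a component (KGD4) of the oxoglutarate dehydrogenase complex. By textbook assignment 46 have a direct bacterial homologue, 28 are specific to mitochondria, and Mrps18a and Mrps18b are further relatives of bacterial S18.

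Library totals lay between 47350441 and 56138844 counts. The 8 embryonic stem cell markers (Pou5f1, Sox2, Nanog and others) summed to between 4743 and 10060 CPM (counts scaled to the normalised library size), and none was at 0 in any library. Markers of other cell types differed between libraries: 10 stromal and mesoderm markers summed to 681.6 CPM in WT day 0 replicate 1, 1074 CPM in WT day 1 replicate 1 and 161.4 CPM in WT day 2 replicate 1, against 11.16 to 40.75 CPM elsewhere, with 0 to 4 of the 10 at 0. The sum of 8 trophoblast markers was also higher in these 3 libraries (677, 1371 and 408.2 CPM, against 75.86 to 239.6 elsewhere). At most 1 of the 8 was at 0 in a library. Krt8 and Krt18 carried much of this sum (266.7 and 238.8 CPM at day 0, 567.9 and 558.6 at day 1, 116.3 and 125.1 at day 2). Not all markers rose: Ascl2 (2.31, 1.11 and 0.47 CPM) and the stromal marker Thy1 (4.96, 3.43 and 2.86) were lower than in WT replicate 2. The 7 markers of 2-cell-like cells summed to 1.617 to 18.13 CPM, with 0 to 2 at 0. Primitive endoderm markers (10 genes) summed to between 382.2 and 464 CPM in WT replicate 1 and between 834.5 and 964 CPM in WT replicate 2. In the mutant they summed to between 207 and 394.3 CPM, and none was at 0 in any library. The part of such cells in the values below was not tested, and in bulk RNA fewer cells of a type and less RNA per cell cannot be told apart. None of the genes encoded by mitochondrial DNA is in the table used here, so the products of the mitoribosome were not analysed here.

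Levels between genes were compared on counts per kilobase of exon, scaled to the same total in each library. On this scale the median member reached 98.58 averaged over the 8 groups, against 13.12 for the median of all genes tested, 309.5 for nuclear-encoded oxidative phosphorylation genes and 679.2 for cytosolic ribosomal protein genes. Large-subunit members had a median of 101 and small-subunit members one of 85.95. The 5 most abundant were Mrpl2 (416.3), Mrpl34 (399.1), Mrpl12 (387.6), Mrpl18 (359.4) and Mrpl28 (297.3). All 5 encode large-subunit proteins with bacterial homologues, and Mrpl12 forms the stalk that contacts translation factors. Over the 17 libraries Mrpl2 ranged from 330.3 to 514.6 and Mrpl12 from 222.7 to 572.7, and their order changed between libraries. Mrpl12 lay above Mrpl2 in WT day 0 replicate 1 (398.9 against 346.4) and below it in WT day 7 replicate 1 (281.2 against 355.1). Mrpl2 lay above Mrpl28 in each of the 17 libraries. At the other end lay Mrpl23 (2.91), Mrpl48 (6.26) and Mrps33 (16.7). The exon length used is that of all annotated exons together, which understates genes with long alternative exons. Mrpl23 lay apart from all other members but Mrpl48.

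**Figure D1:**
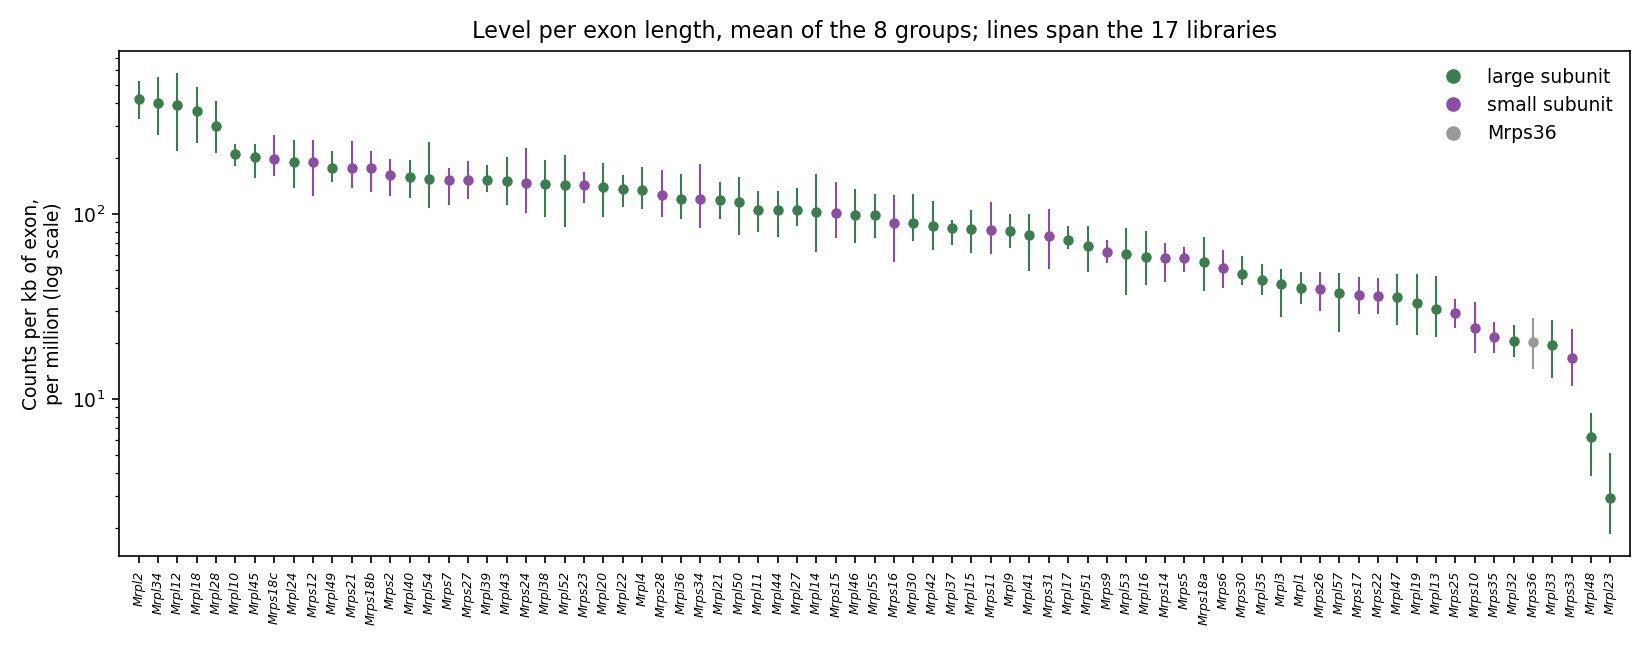
Level of each of the 77 members, in counts per kilobase of annotated exon at the same total per library, on a log axis. Points are means of the 8 group means and lines span the 17 libraries; 5 large-subunit genes lie at 297.3 to 416.3, and Mrpl23 lies lowest at 2.91.

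Some members share exons with other annotated genes, and whether counting used strand is not given in the sources used here. In GENCODE M21, 69.8% of the exon bases of Mrps25 lie opposite Nr2c2, 63.4% of those of Mrps34 lie opposite Mapk8ip3, and 36% of those of Mrpl19 lie opposite Gcfc2. Of Mrpl53, 88% of exon bases are shared on the same strand with the predicted gene Gm42688, which is not in the table. Mrps34 also shares 37% of its exon bases on the same strand with Nme3, which is in the table. Counts of these members are uncertain to that extent.

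Starts of the members were searched for motifs, since the members moved together from library to library (below). RefSeq windows on GRCm38.p6, from 250 bases before to 50 bases after a start, were found for 68 members (74 windows) and none for the other 9. Searched on both strands, and with each gene counted once, the ETS-type motif CCGGAAG was in a window of 25 of the 68 members (36.8%) and of 17.3% of the 11736 genes tested that have a window. An NRF1-type motif (GCGCA, any base, then GCGC) was in 19.1% against 10.0%, and a YY1-type motif, AAGATGGC, in 17.6% against 4.58%. The E-box CACGTG, the letters bound by Myc, was in 5 members (7.35%) against 11.3%, and TATAAA also in 5 members (7.35%) against 9.37%. Such a match describes letters, not a bound site. NRF1, the ETS factor GABP and YY1 are known regulators of nuclear genes for mitochondrial proteins. Opposite-strand starts of protein-coding genes were counted up to 1000 bases upstream of a gene's start or up to 100 bases inside the gene. Such a start was found for 19 of 77 members (24.7%), against 9.65% of protein-coding genes tested. Mrpl49 with Fau, which encodes a cytosolic ribosomal protein, and Mrpl36 with Ndufs6, a complex I subunit, are examples. Members were short, with a median span of 7894 bases against 24179.

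The windows of 4 members that passed a test below are shown 5′ to 3′ along each gene, because they differ in these motifs, with the matched letters in capitals. Mrpl53 (chr6:83108858-83109157, plus strand) holds 2 ETS matches, beginning 59 and 16 bases before the start. Mrps27 (chr13:99344536-99344835, plus strand) holds an ETS match 48 bases before and a YY1 match 14 bases after it. Mrpl18 (chr17:12916042-12916341, minus strand) holds an ETS match 240 bases before, and Mrpl16 (chr19:11770165-11770464, plus strand) only TATAAA, 68 bases before. The window of Mrps31 held none of the 5 motifs.
Mrpl53: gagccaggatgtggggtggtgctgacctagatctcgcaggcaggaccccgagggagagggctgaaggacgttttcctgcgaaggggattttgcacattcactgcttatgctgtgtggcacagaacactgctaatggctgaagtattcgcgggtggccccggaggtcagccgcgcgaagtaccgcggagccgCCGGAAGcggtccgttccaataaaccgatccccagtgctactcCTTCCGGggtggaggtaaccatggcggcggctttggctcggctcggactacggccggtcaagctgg
Mrps27: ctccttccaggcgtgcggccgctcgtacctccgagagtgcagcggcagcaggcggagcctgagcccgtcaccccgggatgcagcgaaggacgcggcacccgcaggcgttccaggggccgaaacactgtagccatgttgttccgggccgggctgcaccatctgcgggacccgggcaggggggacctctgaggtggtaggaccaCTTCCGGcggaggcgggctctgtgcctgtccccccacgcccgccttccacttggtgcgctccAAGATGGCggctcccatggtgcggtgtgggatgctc
Mrpl18: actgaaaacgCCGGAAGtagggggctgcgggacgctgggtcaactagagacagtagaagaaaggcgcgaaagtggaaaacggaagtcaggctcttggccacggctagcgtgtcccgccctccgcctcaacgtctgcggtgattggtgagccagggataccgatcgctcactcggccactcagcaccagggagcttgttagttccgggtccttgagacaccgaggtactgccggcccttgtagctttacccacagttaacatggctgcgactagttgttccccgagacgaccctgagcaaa
Mrpl16: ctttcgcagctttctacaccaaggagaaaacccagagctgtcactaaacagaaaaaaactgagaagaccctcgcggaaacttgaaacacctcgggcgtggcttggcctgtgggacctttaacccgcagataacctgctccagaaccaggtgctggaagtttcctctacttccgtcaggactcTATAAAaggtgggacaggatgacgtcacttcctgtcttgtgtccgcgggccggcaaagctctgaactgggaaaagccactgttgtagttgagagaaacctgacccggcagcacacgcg

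Members varied together across libraries, also between replicates of a group. The correlation of a member's log2 CPM with the mean of the other members over the 17 libraries had a median of 0.82, and it was over 0.5 for 68 of 77 members (88.3%) against 16.7% of the other genes tested. Within groups, on deviations from the group mean, the median was 0.89, with 69 members (89.6%) over 0.5 against 32.1% of other genes. These are descriptions without a test: the libraries share 8 groups and each gene's value shares its library's scaling. Between WT replicates at days 0, 1, 2 and 7, the members' mean log2 CPM had an SD of 0.10, 0.38, 0.36 and 0.28. Cytosolic ribosomal protein genes had 0.02, 0.42, 0.37 and 0.30, and nuclear oxidative phosphorylation genes 0.16, 0.48, 0.46 and 0.26. Such a spread was not particular to the members, and how far these lists follow the members was not computed. Most like the rest were Mrpl4 and Mrpl40 (both 0.97) and Mrpl21 (0.965). Least like it were Mrpl3 (0.02), a large-subunit protein near the catalytic centre, Mrps2 (0.06), Mrpl19 (0.09) and Mrpl50 (0.36). Within groups Mrpl3 went the opposite way to the other members (-0.64), while Mrpl19 followed them (0.57). Mrps36, the one member that is no mitoribosomal protein, followed at 0.38.

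The summed level of the 77 members took between 0.4455 and 0.6806% of a library's counts. In WT it was 4778 and 5194 CPM at day 0, 4547 and 6572 at day 1, 4604 and 6271 at day 2, and 4742 and 6057 at day 7. In the mutant it was 5826 and 5263 CPM at day 0, 7444, 6557 and 5882 at day 1, 4668 and 6294 at day 2, and 4441 and 4702 at day 7. Replicate 2 was the higher WT library at every day, by a mean over members of 0.15 (day 0), 0.54, 0.50 and 0.39 (day 7) log2 units, with 55 to 73 of 77 members higher in it. From day 0 to day 7 the stromal markers in WT replicate 1 summed to 681.6, 1074, 161.4 and 40.75 CPM. In WT replicate 2 they summed to 17.79 to 28.67 CPM. Primitive endoderm markers went the other way, with 409.9, 464, 382.2 and 409.2 CPM in WT replicate 1. In WT replicate 2 these had 914.8, 834.5, 945.6 and 964 CPM. The part of either marker set in the gap between the replicates was not tested. The highest sum was in mutant day 1 replicate 1 and the lowest in mutant day 7 replicate 1. The mean log2 CPM over members ran from 5.61 (mutant day 7) to 6.12 (mutant day 1) between groups, and its pooled SD within groups was 0.246.

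**Figure D2:**
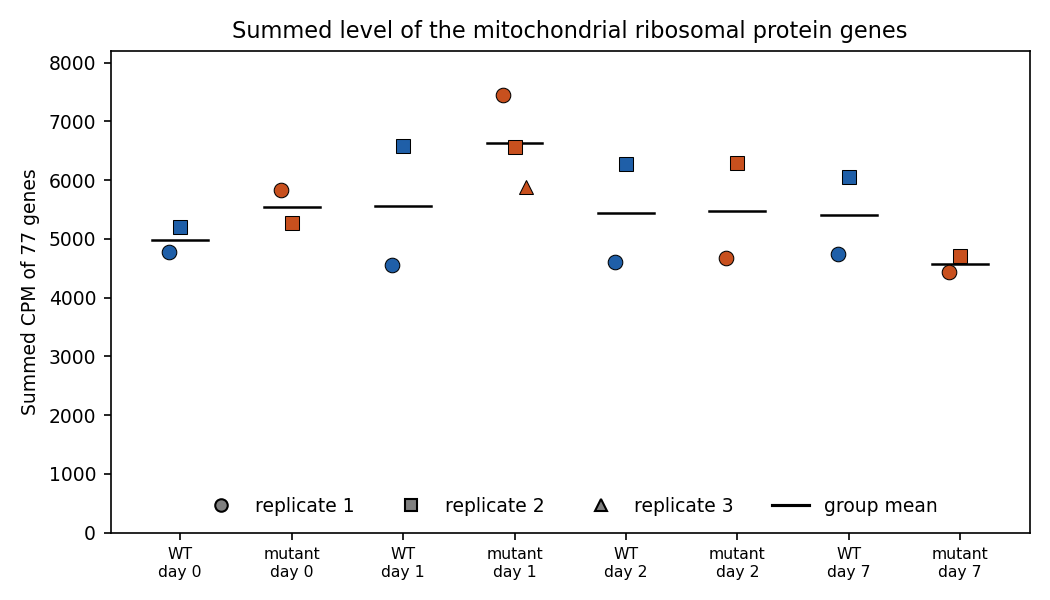
Summed CPM of the 77 members in each of the 17 libraries, by genotype and day, with replicate number as symbol and the group mean as a line. The 2 mutant day 7 libraries lie at 4441 and 4702 CPM, and WT replicate 2 lies above replicate 1 at all 4 days.

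Mutant and WT cells were compared at each day to ask whether slow transcription changes these genes before and during 2i. At day 0 most members lay slightly higher in the mutant: 60 of 77 had a positive log2 fold change, with a median of 0.17 against -0.05 over all genes tested. Groups did not overlap, with the mutant higher, for 34 members (44.2%, against 23.6% of genes tested). At day 1 the count was 67 of 77 and the median 0.29. That median was 0.03 without WT day 1 replicate 1 and 0.55 without WT day 1 replicate 2. At day 2 the members divided, 45 positive with a median of 0.04. At day 7 the direction of the median was the opposite, with 13 positive and a median of -0.25 against -0.03 over all genes. There 27 members (35.1%, against 23.8% of genes tested) did not overlap with the mutant lower. The median was -0.01 without WT day 7 replicate 2 and -0.46 without WT day 7 replicate 1. Both subunits had like medians at each day, for example -0.25 for the large and for the small subunit at day 7.

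No single member passed the test at any of the 4 days (edgeR quasi-likelihood, Benjamini-Hochberg adjusted p under 0.05, over all genes tested). That test called 0.28% of genes at day 0, 0.417% at day 1, 0.0716% at day 2 and 0.0976% at day 7. At an unadjusted p under 0.05 there were 2, 8, 2 and 3 of 77 members, where 13.2%, 14.4%, 6.04% and 9.53% of genes tested were. DESeq2 called 1, 2, 1 and 3 members. With a term for the WT replicate number, 1 member passed at day 0 and 2 at day 7, Mrpl19 at both. The share of all genes called in these other fits is not given here. The members with the largest positive differences were Mrpl23 (log2 0.78, SE 0.43) and Mrpl57 (0.57, SE 0.38) at day 0, Mrpl16 (0.65, SE 0.20) and Mrps31 (0.61, SE 0.22) at day 1, Mrps31 (0.46, SE 0.24) at day 2 and Mrps31 (0.34, SE 0.24) at day 7. Mrpl19 was among the 3 most negative members at all 4 days, Mrpl38 at days 0, 2 and 7, and Mrpl53 at days 1, 2 and 7. At day 7 the log2 fold changes were -0.76 for Mrpl19 (SE 0.17), -0.93 for Mrpl38 (SE 0.23) and -0.98 for Mrpl53 (SE 0.28), with edgeR adjusted p of 0.1575, 0.1845 and 0.2599.

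**Figure D3:**
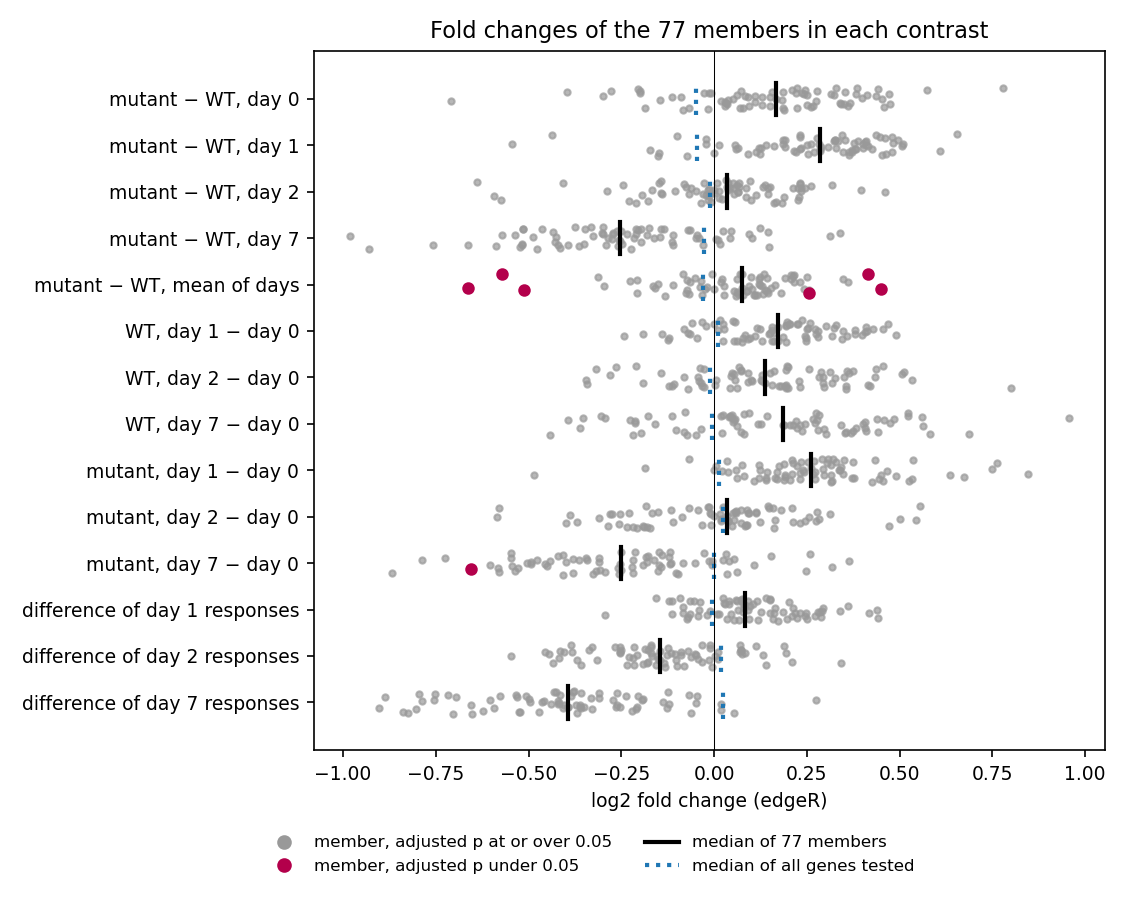
Log2 fold changes (edgeR) of the 77 members, 1 point each, in the 14 contrasts, with the median of the members (black) and of all genes tested (dotted). Member medians range from -0.39 for the difference of day 7 responses to 0.29 for mutant against WT at day 1, and 7 points passed the test.

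Averaged over the 4 days, 3 members were lower and 3 higher in the mutant. This is 7.79% of members, where the same test called 12.8% of genes (5.35% higher and 7.49% lower), so that members passed no more often than genes at large. The median member difference was 0.08. Mrpl19, Mrpl53 and Mrpl38 were the lower ones, all large-subunit genes, and Mrpl16, Mrps31 and Mrps27 the higher ones. The count fell to 2 when mutant replicate 1 of day 7 was left out, and to 3 when replicate 1 of day 0 or replicate 2 of day 2 was.

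Mrpl19 (chr6:81957851-81965958, minus strand), a large-subunit protein of bacterial descent, gave the clearest difference. Its CPM in WT were 65.2 and 63.7 at day 0, 57.0 and 74.4 at day 1, 62.6 and 60.2 at day 2, and 60.1 and 59.1 at day 7. In the mutant they were 37.6 and 41.2, then 48.0, 47.9 and 39.2, then 36.9 and 41.9, and 35.3 and 35.2. Every mutant library thus lay below every WT library. It was the single member with that separation in either direction (1.3% of members, against 0.514% of genes tested for lower). The averaged log2 fold change was -0.66 (SE 0.09, edgeR adjusted p = 0.000657) and the call held under each of 17 omissions of a library and 9 other alternatives.

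Mrpl38 (chr11:116131817-116138868, minus strand) encodes a mitochondria-specific protein of the central protuberance of the large subunit. Its CPM were 102 and 103 in WT at day 0, 105 and 144 at day 1, 128 and 154 at day 2, and 123 and 145 at day 7. In the mutant they were 81.3 and 74.8, then 143, 95.0 and 98.8, then 80.2 and 109, and 68.7 and 71.9. The groups overlapped at day 1 only, through mutant replicate 1, which had the highest sum over members. The averaged log2 fold change was -0.51 (SE 0.11, edgeR adjusted p = 0.0117), and this call also held in every alternative.

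Mrpl53 (chr6:83109040-83109939, plus strand), a short mitochondria-specific gene of the large subunit, ran at a lower level. It had 13.6 and 12.8 CPM in WT at day 0, 15.8 and 19.3 at day 1, 13.7 and 20.5 at day 2, and 16.99 and 19.95 at day 7. Mutant libraries had 10.4 and 11.4, then 15.9, 12.9 and 10.1, then 9.62 and 13.1, and 8.04 and 10.7. Genotypes did not overlap at days 0, 2 and 7, and overlapped at day 1. The averaged log2 fold change was -0.57 (SE 0.14, edgeR adjusted p = 0.0178), and leaving out replicate 1 of the mutant at day 2 or at day 7 ended the call, with an adjusted p of up to 0.0556.

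Mrpl16 (chr19:11770391-11774960, plus strand), a large-subunit protein of bacterial descent beside the catalytic centre, was higher in the mutant. WT libraries had 54.7 and 42.2 CPM at day 0, 53.4 and 44.2 at day 1, 45.9 and 41.8 at day 2, and 39.3 and 43.5 at day 7. Mutant libraries had 73.7 and 59.5, then 90.8, 76.1 and 63.4, then 51.3 and 64.0, and 46.6 and 45.2. The genotypes did not overlap at any of the 4 days, and the gap was smallest at day 7. The averaged log2 fold change was 0.41 (SE 0.10, edgeR adjusted p = 0.0225). The call was lost with offsets for gene span (adjusted p = 0.0722) and without mutant day 0 replicate 1, day 2 replicate 2 or day 7 replicate 1.

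Mrps31 (chr8:22411361-22429665, plus strand) encodes a mitochondria-specific small-subunit protein. Its CPM were 56.6 and 79.0 in WT at day 0, 52.1 and 76.1 at day 1, 50.9 and 67.7 at day 2, and 52.4 and 53.1 at day 7. In the mutant they were 100.1 and 77.02, then 91.5, 101 and 101, then 76.6 and 86.7, and 74.9 and 58.5. Only at day 0 did the genotypes overlap. The averaged log2 fold change was 0.45 (SE 0.12, edgeR adjusted p = 0.0249). It was lost without WT day 0 replicate 1 and WT day 1 replicate 1 together (adjusted p = 0.0739) and under 5 of 17 omissions of 1 library.

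Mrps27 (chr13:99344786-99415562, plus strand), a pentatricopeptide-repeat protein of the small subunit, was just inside the threshold. It had 71.7 to 94.5 CPM (median 84.2) in the 8 WT libraries and 78.7 to 123 CPM (median 101) in the 9 mutant libraries. Mutant libraries were higher without overlap at days 0, 1 and 2, and the genotypes overlapped at day 7. The averaged log2 fold change was 0.26 (SE 0.08, edgeR adjusted p = 0.0491), and the call was lost under 15 of 17 omissions of 1 library and under 6 of 9 other alternatives.

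**Figure D4:**
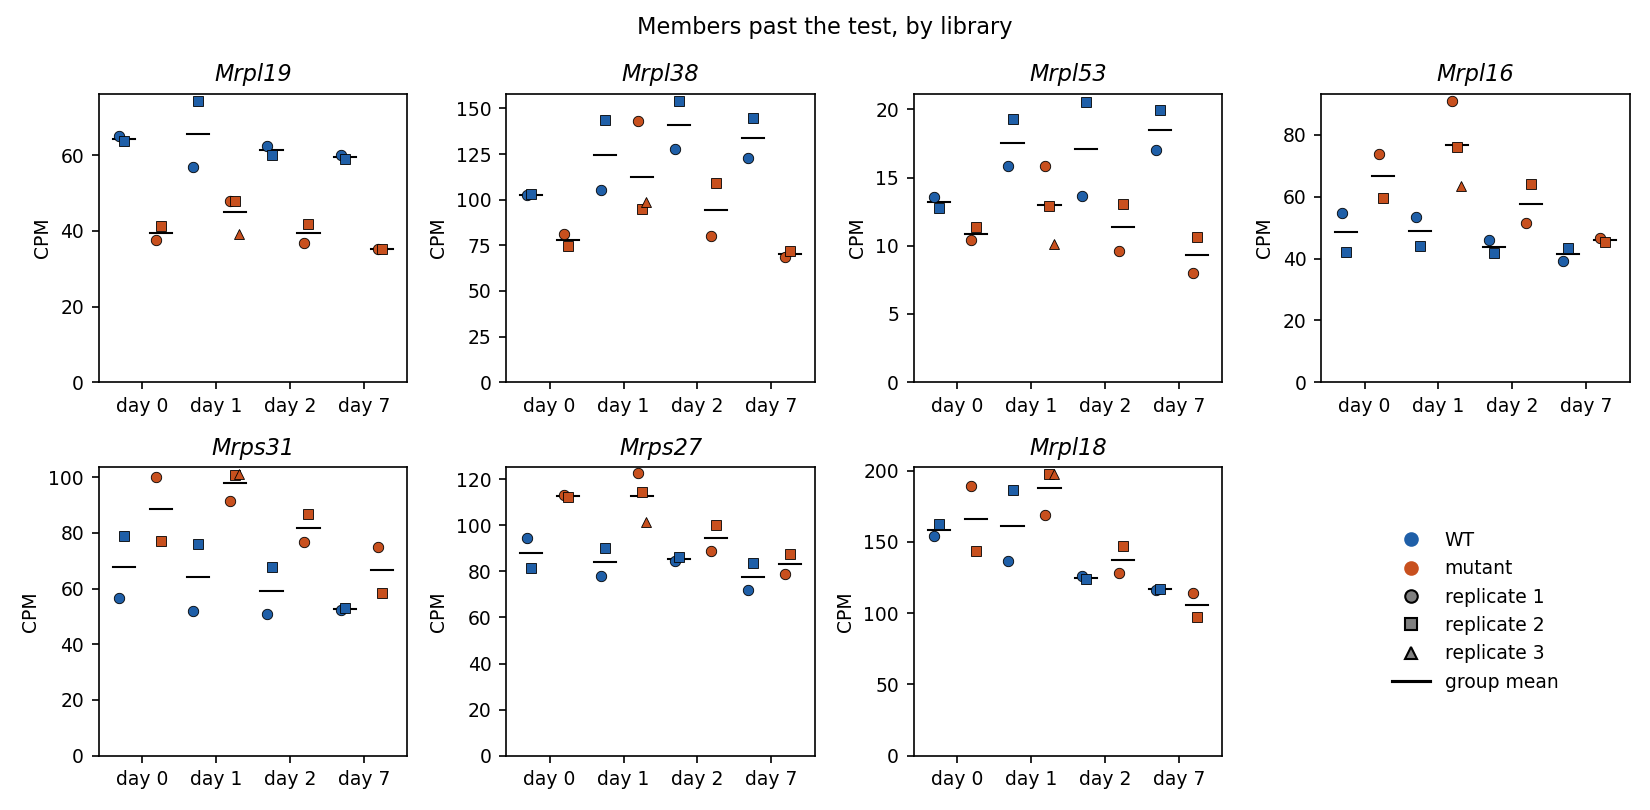
CPM of the 7 members that passed the test in any contrast, in all 17 libraries (axes start at 0), coloured by genotype, with replicate number as symbol and group means as lines. Mrpl19 shows no overlap between genotypes (57.0 to 74.4 CPM in WT, 35.2 to 48.0 in the mutant), and Mrpl18 is lowest at day 7.

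Genes next to these members were examined after their values were seen, within 250 kb on each side. Around Mrpl53, 21 of 22 neighbours tested had a negative averaged difference and 10 were lower in the mutant, among them Dctn1, a dynactin subunit (log2 -0.69, edgeR adjusted p = 0.000828), and Htra2, a mitochondrial protease (-0.74, edgeR adjusted p = 0.00678). Around Mrpl19, both neighbours tested were lower as well: Gcfc2, which shares exon bases with it (-0.57), and Eva1a (-0.98). Around Mrps31, 11 of 12 neighbours had a positive difference and 7 were higher, including Vdac3, a mitochondrial outer-membrane channel (0.57), and Slc25a15, a mitochondrial ornithine carrier (0.54). The neighbours of Mrpl38 were mixed, with 1 lower and 2 higher of 19, and none passed the test of the 5 around Mrpl16 or the 2 around Mrps27. The 801 genes tested on chromosome 8 had a median difference of 0.36, with 34.6% higher in the mutant, while on chromosome 6, 14.6% of 721 genes were lower, with a median of -0.10. Chromosome 15, where 1 member lies, had a like share lower (14.8%) and a median of -0.26. The part of chromosomal position in the differences of the members was not tested.

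**Figure D5:**
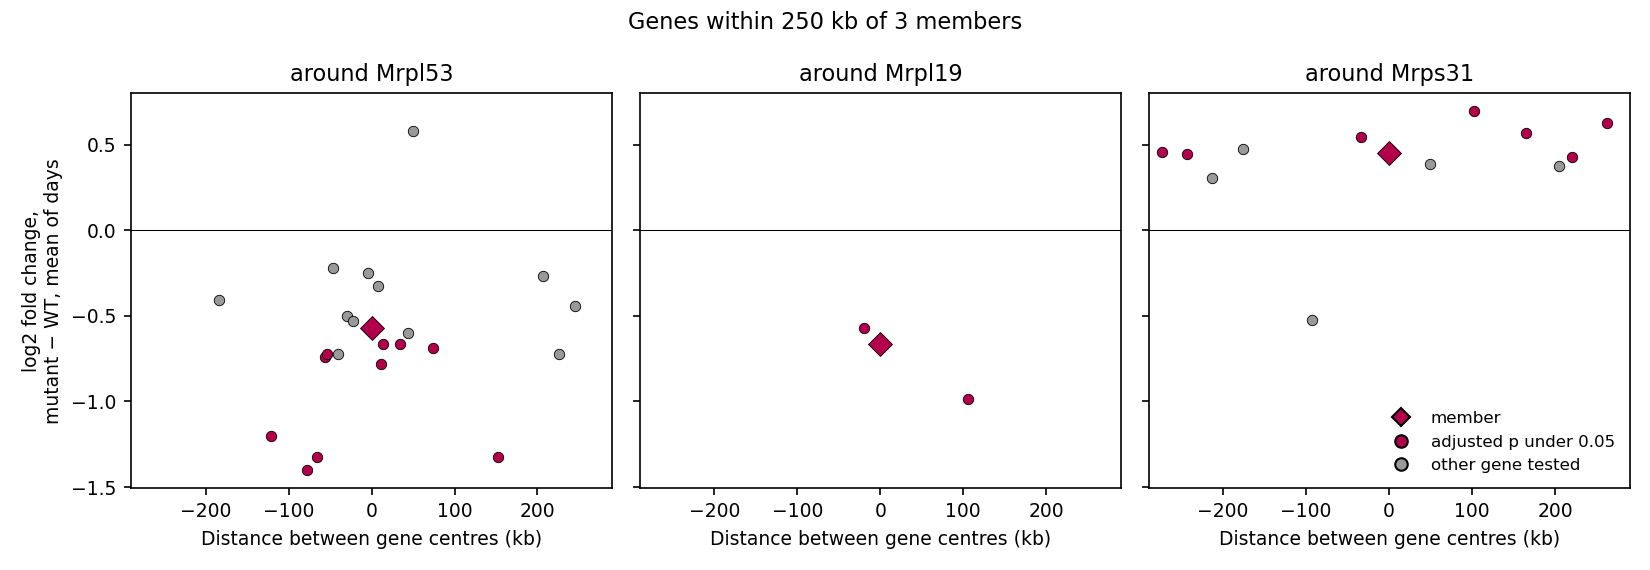
Log2 fold change, mutant minus WT averaged over days, of the genes tested within 250 kb of Mrpl53, Mrpl19 and Mrps31 (diamonds), by distance between gene centres in kb. Points in dark red passed the test: 10 lower neighbours around Mrpl53, 2 lower around Mrpl19 and 7 higher around Mrps31.

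The days in 2i were compared with day 0 within each genotype, to ask how these genes move as cells pass from serum and LIF into naive conditions. In WT, 64 members had a positive difference at day 1, 57 at day 2 and 57 at day 7, with medians of 0.17, 0.14 and 0.19. None passed the test (edgeR), which called 0.202%, 2.16% and 12.7% of genes. Members at an unadjusted p under 0.05 numbered 0, 0 and 2, where 8.42%, 17.1% and 29.4% of genes tested were at that level. DESeq2 called 0 members at each day. Mrpl14, a large-subunit protein, had the largest positive values at days 2 (0.80, SE 0.47) and 7 (0.96, SE 0.47). Its CPM went from 15.3 and 24.7 at day 0 to 23.6 and 46.0 at day 2 and 29.1 and 48.4 at day 7. Within each replicate number Mrpl14 was thus higher at day 7 than at day 0. With a term for the WT replicate number added to the fit, Mrpl14 was the 1 member called at day 7 (0.95, edgeR adjusted p = 0.0299). The share of all genes called in that fit is not given here. Without WT day 1 replicate 2 the day 1 median was -0.13, without day 2 replicate 2 the day 2 median was -0.13, and without day 7 replicate 2 the day 7 median was -0.06. When replicate 1 of the same day was left out instead, these medians were 0.43, 0.4 and 0.36.

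In the mutant the course differed from day to day. At day 1, 73 of 77 members had a positive difference from day 0 (median 0.26), and 36 did not overlap with it (46.8%, against 19.5% of genes tested). At day 2 there were 43 positive, with a median of 0.03, which was -0.27 without mutant day 2 replicate 2. At day 7, 65 of 77 were negative with a median of -0.25, where the median over all genes was 0, and 51 members did not overlap (66.2%, against 34.2% of genes tested). The day 7 median stayed between -0.28 and -0.17 when any library was left out. Large-subunit members were negative in 45 of 50 cases and small-subunit members in 20 of 26.

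Single members rarely passed in the mutant. None did at days 1 and 2, where the edgeR test called 1.41% and 2.92% of genes. There 7 and 0 members had an unadjusted p under 0.05, against 13.2% and 15% of genes tested. DESeq2 called 1 and 0 members, and the share of all genes it called is not given here. At day 1 the highest were Mrpl54 (log2 0.85, SE 0.37), Mrps28 (0.76, SE 0.27) and Mrpl12 (0.75, SE 0.31). Mrpl12 had 155 and 145 CPM at day 0 and 313, 257 and 186 at day 1, without overlap, and 94.0 and 130 at day 7. At day 7, 13 of 77 members had an unadjusted p under 0.05, all of them negative, where 14.1% of genes tested were negative at that level. After adjustment 1 member was lower (1.3%, where 6.96% of genes were). It was Mrpl18 (chr17:12911349-12916345, minus strand), a large-subunit protein of the central protuberance, at a log2 fold change of -0.65 (SE 0.19, edgeR adjusted p = 0.0341).

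Mrpl18 had 189 and 143 CPM in the mutant at day 0, 169, 198 and 198 at day 1, 128 and 147 at day 2, and 114 and 97.6 at day 7. Both day 7 libraries lay below all others of the mutant. In WT it had 154 and 163 CPM at day 0, 136 and 186 at day 1, 126 and 124 at day 2, and 116 and 117 at day 7, a log2 fold change of -0.44 (SE 0.19) at day 7 that did not pass (edgeR adjusted p = 0.133). The call in the mutant was lost without mutant day 0 replicate 1 (adjusted p = 0.359) or either mutant day 7 library. The count of lower members at day 7 depended on the fit: it was 6 with DESeq2, 8 with the term for the WT replicate number and 17 when only those 2 groups were fitted. The share of all genes called in those fits is not given here, so these counts do not set the members apart from other genes.

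Mrps34, a small-subunit protein, had the most negative value of the mutant at day 7 (-0.87, SE 0.27) and just missed the threshold (edgeR adjusted p = 0.0523). It had 110 and 83.1 CPM at day 0 and 48.4 and 57.4 at day 7, against 67.2 and 75.3, then 64.4 and 70.3, in WT. These counts are uncertain, since Mrps34 shares exon bases with Mapk8ip3 and Nme3. Mrps12, which sits at the decoding centre, followed at -0.79 (SE 0.36), and Mrpl34 at -0.72 (SE 0.27). Of the 12 members with a positive value at day 7, Mrps2 (0.36, SE 0.18) and Mrpl43 (0.32, SE 0.28) had the highest, and none of the 12 passed. Mrps2 had a like value in WT (0.34, SE 0.18).

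The difference between the genotypes in their response to 2i was tested directly. For day 7 it was negative for 73 of 77 members, with a median of -0.39 against 0.03 over all genes, and it stayed between -0.57 and -0.19 when any library was left out. No member passed at day 1, 2 or 7, nor did any other gene (edgeR, 0% of genes). No member had an unadjusted p under 0.05, where 0.768%, 2.38% and 7.67% of genes tested had one at days 1, 2 and 7. DESeq2 called none of the members. Mrps15 (-0.90, SE 0.50) and Mrpl28 (-0.89, SE 0.49) had the most negative values at day 7. Mrps15 had 35.9 and 39.9 CPM in WT at day 0 and 47.1 and 64.8 at day 7, and 52.0 and 46.7, then 37.3 and 40.5, in the mutant. The response contrast uses the day 0 and day 7 libraries of both genotypes, which also enter the comparisons above.

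Members with particular positions in the family did not pass any test. The 3 relatives of bacterial S18, of which Mrps18a lies in the large and the others in the small subunit, had averaged genotype differences of 0.12 (Mrps18a), -0.07 (Mrps18b) and 0.02 (Mrps18c). On the length scale Mrps18c (199) and Mrps18b (177) lay above Mrps18a (54.7), and their ranges over libraries did not reach it (lowest 133.8, against a highest of 73.9). Mrpl33 and Mrpl36, small proteins of the large subunit, had averaged differences of 0.13 (SE 0.16) and -0.23 (SE 0.16), and Mrps6 one of -0.01 (SE 0.13). Mrps36 had 4.87 to 9.65 CPM in WT and 6.06 to 9.84 in the mutant. Its day 7 difference in WT, 0.69 (SE 0.28, edgeR adjusted p = 0.123), was among the 3 most positive of the members.

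Genes of mitochondrial translation, of other mitochondrial functions and of the cytosolic ribosome, and nuclear regulators, were taken from lists. Of 165 genes tested in 9 lists (mitoribosomal proteins outside the naming rule, assembly factors, translation factors, tRNA synthetases, mitochondrial transcription, import and mass, nuclear oxidative phosphorylation genes, nuclear regulators and cytosolic ribosomal proteins), 19 were higher and 1 lower in the mutant on average (11.5% and 0.606%, against 5.35% and 7.49% of all genes tested). Of the 19, 6 lie on chromosome 8 (Gadd45gip1, Tomm20, Cars2, Vdac3, Ddx28 and Timm44), where 34.6% of genes tested were higher, and the part of position in these values was not tested. Gadd45gip1, itself a large-subunit protein, was higher at 0.88 (SE 0.13), as was Tomm20, a receptor of the import pore, at 0.63 (SE 0.07). The tRNA synthetases Cars2, Ears2, Lars2 and Tars2 were higher by 0.34 to 0.58. The 19 also included cytosolic ribosomal protein genes, among them Rpl5 (0.61), Rpl10 (0.46), Rps27 (0.51) and Rpl7 (0.45). Tfb1m, which methylates the small mitoribosomal RNA, was the lower one at -0.93 (SE 0.10, edgeR adjusted p = 0.000279). Oxidative phosphorylation genes had a median of 0.13, and Sdha, a subunit of complex II, was higher at 0.31 (SE 0.06).

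Over the days in 2i, Grsf1, an RNA-granule protein that takes part in mitoribosome assembly, rose in both genotypes, by 1.35 (SE 0.30) in WT and 1.63 (SE 0.30) in the mutant at day 7 on the log2 scale. In the mutant at day 7 Rbfa, which matures the small subunit (-1.01, SE 0.26), and Gfm2, which recycles ribosomes (-0.62, SE 0.16), fell. Myc, a known activator of ribosome genes, fell by 3.38 in WT and by 2.69 in the mutant at day 7 on the log2 scale, with edgeR adjusted p of 0.006995 and 0.0152. At day 7 oxidative phosphorylation genes had a median difference from day 0 of 0.50 in WT and 0.09 in the mutant, and cytosolic ribosomal protein genes 0.58 and -0.20, beside 0.19 and -0.25 for the members. For the difference between those responses, 30 of 34 oxidative phosphorylation genes (median -0.42) and 33 of 35 cytosolic ribosomal protein genes (median -0.68) were negative, and none passed the test.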

How the data were processed

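RNA-seq counts per gene were deposited as one table of whole-number counts for the 17 libraries, with gene symbols. Per the submitters' processing notes the authors used STAR and deepTools with mm10. Versions, the counting tool, its annotation and its strand setting are not given in the sources used here. The counts were tested with edgeR 4.0.16 (R 4.3.3): TMM scaling, filterByExpr on the 8 groups of genotype and day (15365 genes), one quasi-likelihood fit over all libraries and 14 contrasts. Calls are at a Benjamini-Hochberg adjusted p under 0.05, two-sided, within a contrast. The fit had 9 residual degrees of freedom and a biological coefficient of variation of 0.333. CPM use TMM-scaled totals. Positions and exon lengths are from GENCODE M21 on GRCm38 (found for 97.48% of symbols), promoter windows from RefSeq.

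The members and all gene lists were chosen with earlier results of these data known. Named were members called in any contrast, the 3 most positive and 3 most negative per genotype or 2i contrast, the 5 most and 3 least abundant, and Mrps36, Mrps18a, Mrps18b, Mrps18c, Mrpl12, Mrps6, Mrpl33 and Mrpl36. From other lists called genes were named, at most 4 per list and contrast. Members named for co-variation, overlap or shared starts and the neighbours were chosen after their values were seen. A procedure of the same form was run on simulated data, and how often it recovered changes is not given here. Alternatives were DESeq2 1.42.0, RLE and upper-quartile scaling, other filters, other terms in the fit and leaving out libraries.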

Additional observations from a re-analysis of the deposited data

How the results depend on the processing

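Across the alternatives other than leaving out 1 library, 138 of 139 median member differences moved by less than the spread within groups. The exception was mutant minus WT at day 1, 0.027 without WT day 0 replicate 1 and WT day 1 replicate 1 together. That spread, near 0.25 log2 units, is as large as or larger than most of the medians. A median could thus fall to 0 or change sign and still count as unmoved, so this count does not show that the medians are stable. Of 139 counts of called members, 119 stayed within 1.5 times the main count. For mutant day 7 minus day 0 the count of 1 became 2 with RLE scaling, 3 with upper-quartile scaling, 2 with the stricter filter (1 CPM in 4 libraries), 8 when the WT replicate number was added as a term (WT series term), 2 with span offsets, 3 without those 2 WT libraries, 17 when only the 2 groups were fitted and 6 with DESeq2, all lower. Where the count was 0, DESeq2 gave 1 for mutant day 1 minus day 0 and 1, 2, 1 and 3 for mutant minus WT at days 0, 1, 2 and 7. The WT series term gave 1 for WT day 7 minus day 0, and 1 at day 0 and 2 at day 7 for mutant minus WT. Span offsets gave 2 and 1 for WT day 7 minus day 0 and for mutant minus WT at day 0, and fitting the 2 groups alone gave 1 for mutant day 1 minus day 0. The average over days uses all groups, so that restricting the fit to compared groups gives no value for it. How many genes in all each fit of this section called is not given here, so its counts do not set the members apart from other genes. The cause was not tested for any of these.

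Leaving out each library in turn gave 2 to 6 called members for the average and 0 to 3 for mutant day 7 minus day 0, and 0 for the other contrasts. Median member differences ranged from -0.133 to 0.427 (WT day 1), -0.126 to 0.4 (WT day 2), -0.063 to 0.363 (WT day 7), -0.271 to 0.207 (mutant day 2), 0.027 to 0.546 and -0.259 to 0.33 (mutant minus WT at days 1 and 2), and -0.131 to 0.378 and -0.41 to 0.108 (difference of responses at days 1 and 2). A group left with 1 library was assumed to vary like the others.

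Same-numbered libraries deviated together in 6 of 6 pairs of WT days (0.236 to 0.744). The correlation was over 0.1 in 1 of 6 mutant pairs and in 10 of 16 pairs between genotypes. The main fit did not take the numbers as pairs, so that a lasting difference between the WT series counts as spread in it. The fits with the WT series term take that difference out. A replicate block raised the count for mutant day 7 minus day 0 to 3, and put Mrpl13 (mutant minus WT, day 1) at 0.054 and Mrps34 (mutant day 1 minus day 0) at 0.116, with the opposite sign.

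Other members that never passed also changed sign. Mrps17 (WT day 1 minus day 0) was 0.068 without the 2 WT libraries. When 1 library was left out, values for WT day 1 minus day 0 ranged from -0.417 to 0.092 (Mrps17), -0.524 to 0.242 (Mrpl23), -0.563 to 0.018 (Mrpl24) and -0.129 to 0.873 (Mrpl42), and for WT day 2 minus day 0 from -0.011 to 0.928 (Mrps15). For mutant minus WT they ranged from -0.602 to 0.088 (Mrps33, day 0), -0.563 to 0.368 (Mrpl13, day 1) and -0.102 to 0.918 (Mrpl57, day 2), and within the mutant from -0.269 to 0.155 (Mrps34, day 1) and -0.006 to 0.944 (Mrpl54, day 2).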
